A study of Homo sapiens with 8 samples.

Results

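The genes described here encode the aminoacyl-tRNA synthetases of human cells. They comprise 16 mitochondrial enzymes, 19 cytosolic enzymes and the 3 scaffold proteins AIMP1, AIMP2 and EEF1E1 of the cytosolic multisynthetase complex. These 38 genes were taken by name from the 20037 protein-coding genes of the RefSeq annotation, by a rule that uses no measured values. Earlier results of these data were known when the members were chosen. A peak was counted for a gene when it overlapped the annotated span or the 2 kb on either side of it by at least 1 bp.

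Aminoacyl-tRNA synthetases join each amino acid to its tRNA and so supply every ribosome with charged tRNA. The mitochondrial enzymes are encoded in the nucleus by their own genes, imported, and used on the tRNAs of the mitochondrial genome, while the human genes GARS1 and KARS1 each give both a cytosolic and a mitochondrial form. Many genes for cytosolic synthetases are known targets of ATF4, the transcription factor of the amino acid response.

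CUT&RUN, in which an antibody tethers a nuclease that releases the DNA around its target, was carried out in the human colorectal carcinoma line HCT-116. BRG1, the ATPase of SWI/SNF remodellers encoded by SMARCA4, was profiled in 2 libraries of cells without SETD3 (KO1 and KO2) and 1 library of control cells, and Flag-tagged wild type actin likewise in 2 knockout libraries and 1 control library. SETD3 is the histidine methyltransferase of actin. Control cells also gave 2 IgG libraries as negative controls. One has Flag and Empty in its title and is called here the Flag arm IgG, and the other, whose title names no antibody, is called the BRG1 arm IgG. No IgG library of knockout cells was analysed here. Whether the knockouts are clones or cultures, how SETD3 was removed, and whether the Flag arm IgG cells carried tagged actin is not in the labels. Each antibody had 1 control library, so control values have no error, and no test over samples was made. Values for the knockout are given for each library or as mean ± SD over the 2.

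The data are 1 peak list per library, with between 23784 and 53270 peaks on chromosomes 1 to 22, X and Y in the antibody lists. The BRG1 lists held 23784 peaks in KO1, 32038 in KO2 and 53270 in control cells. A longer list gives more genes a peak, so counts of genes are given with the same count over all genes where that was made. No annotation of exons was used, and peaks are placed by distance from a start. The sequencing depth of each library is unknown. A peak that overlapped a peak of either IgG list is called an IgG site, and such sites made up 71.4% of BRG1 peaks in KO1, 60.1% in KO2 and 36.9% in the control.

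BRG1 peaks outside IgG sites lay at 5 of the 38 genes in KO1, 7 in KO2 and 26 in control cells. These were 13.2%, 18.4% and 68.4% of the synthetase genes, against 15.7%, 28.3% and 52.4% of all protein-coding genes, in KO1, KO2 and the control. With IgG sites included, a BRG1 peak lay at 14 genes in KO1 (34.9% of all genes), 16 in KO2 (44.6%) and 28 in the control (61.9%). The BRG1 arm IgG list had a peak at 13 of them (33.2% of all genes) and the Flag arm IgG list at 14 (31.4%). The share with a BRG1 peak outside IgG sites was 15.8% ± 3.72 in the knockout (SD, n = 2) against 68.4% in the control, a difference of −52.6 percentage points, and over all genes that difference was −30.4 points. Counting IgG sites too, it was −34.2 points for the members and −22.2 points over all genes. Once the BRG1 lists were cut to equal length, it was −13.2 points for the members, IgG sites counted. The value over all genes at equal length is not given here. Synthetase genes are longer than the median gene, with median spans of 28403 bp for the mitochondrial and 32831 bp for the cytosolic enzymes against 24115 bp over all genes. At the rate of all genes of similar span length, 6.58 of the 38 would hold such a peak in KO1, 11.7 in KO2 and 21.5 in the control.

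**Figure D1:**
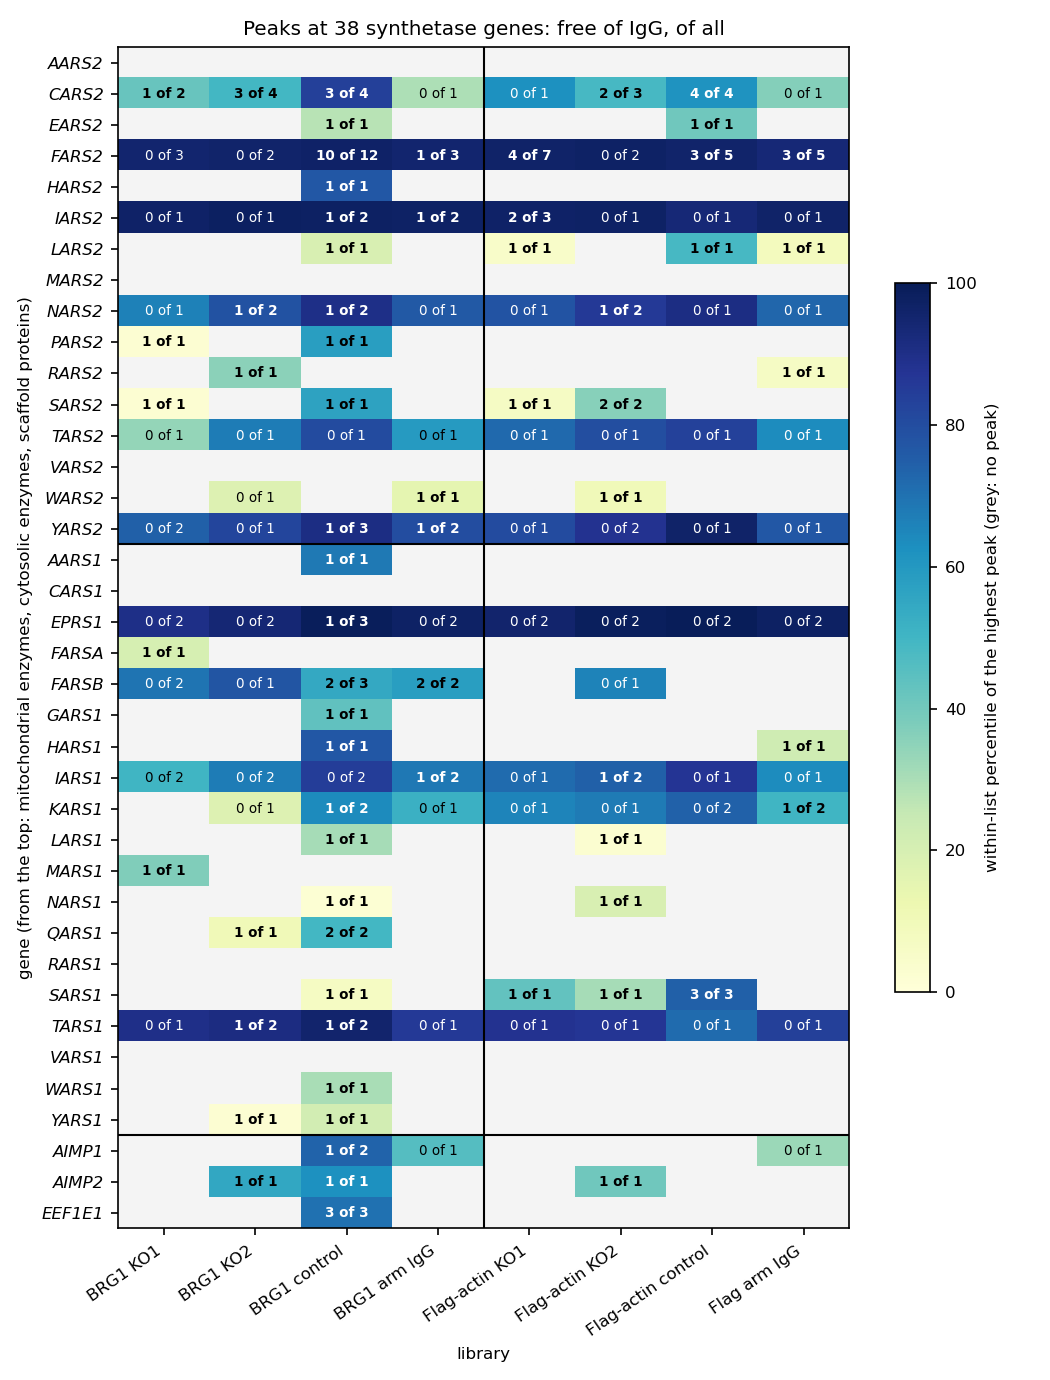
Peaks at each of the 38 genes (rows) in each library (columns). Each cell gives the number of peaks free of IgG sites of the number of all peaks (for an IgG library, free of the other IgG list), and its colour the within-list percentile of the highest peak by total signal. Dark rows such as EPRS1, IARS2 and FARS2 run through all 8 libraries including both IgG libraries, while the cells of the BRG1 control column with a peak outside IgG sites number 26 of 38.

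On promoters, 6 mitochondrial enzyme genes carried a BRG1 control peak outside IgG sites on the promoter window, the 250 bases before to 50 after an annotated start. In all, such a peak lay on the window of 13 of the 33 members with an entry in the RefSeq promoter table, against 25.1% of all 15843 genes with one. In KO1 it lay on 1 of the 33 (3.00% of all genes) and in KO2 on 5 (9.23%). The 13 in control cells were 6 of 14 mitochondrial enzymes, 4 of 16 cytosolic enzymes and 3 of 3 scaffold proteins. They held 12 peaks, since HARS2 and HARS1 share 1 that counts in both classes. LARS1, VARS1, YARS1, AARS2 and VARS2 had no entry.

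The strongest of these peaks by total signal was shared by HARS2 and HARS1, the mitochondrial and the cytosolic histidyl-tRNA synthetase genes. They lie head to head on chromosome 5, and the BRG1 control peak covered 140691271 to 140691780 (hg38), across both starts. It was 510 bp wide and ranked at the 76.6 percentile of its list, that is, above 76.6% of the peaks by total signal. Neither KO1 nor KO2 held a BRG1 peak at either gene, and no Flag-actin list did. The 84 bases between the starts, chr5:140691371-140691454 on the plus strand (GRCh38.p14), are shown because 1 peak covers both starts. Capitals mark 2 matches to the ETS core CCGGAAG, one on each strand.
HARS1 to HARS2: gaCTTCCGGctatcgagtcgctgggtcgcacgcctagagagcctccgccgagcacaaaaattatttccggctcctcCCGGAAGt
HARS1 and HARS2 thus account for 1 peak between them in the counts of peaks below, unless said otherwise.

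CARS2, the mitochondrial cysteinyl-tRNA synthetase gene on chromosome 13, was the 1 member with a BRG1 peak outside IgG sites in all 3 lists, with 1 in KO1, 3 in KO2 and 3 in the control. Genes of that pattern made up 9.15% of all genes. The KO1 peak, at 110715361 to 110715560, lay on ING1, the neighbouring tumour suppressor gene, and ranked at the 19.9 percentile of its list. In KO2 the highest of the 3 ranked at the 49.4 percentile and also lay on ING1. In the control 2 of the 3 peaks lay on ING1 (79.7 and 83.8 percentiles). The remaining control peak, at 110706051 to 110706590, lay on annotated starts of CARS2 itself (73.1 percentile), and a KO2 peak at 110706211 to 110706530 overlapped it. Below are the 250 bases before one of the 2 CARS2 starts under the peak, chr13:110706117-110706366 on the minus strand (GRCh38.p14), with a match to the ETS core in capitals.
CARS2: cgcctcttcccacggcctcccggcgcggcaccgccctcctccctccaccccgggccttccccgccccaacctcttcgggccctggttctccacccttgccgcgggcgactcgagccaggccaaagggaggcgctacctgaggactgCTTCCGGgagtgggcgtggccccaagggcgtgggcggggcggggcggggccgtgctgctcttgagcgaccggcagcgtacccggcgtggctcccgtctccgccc
This stretch has a GC content of 76.0%.

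PARS2, SARS2, FARS2 and NARS2 had BRG1 control peaks of lower percentile at their starts. PARS2 (prolyl) held 1 peak outside IgG sites in KO1, 0 in KO2 and 1 in the control. The KO1 peak, at the 2.22 percentile of its list, did not overlap the control peak, at the 57.9 percentile, but both lay on the PARS2 promoter window. SARS2 (seryl), whose start adjoins that of the mitochondrial ribosomal protein gene MRPS12, held 1 in KO1, 0 in KO2 and 1 in the control. At SARS2 the KO1 and control peaks lay at opposite ends of the gene. The SARS2 control peak, at 38930721 to 38930990 on chromosome 19, covered the start (56.3 percentile), whereas the KO1 peak lay beyond the far end of the gene. NARS2 (asparaginyl) had 0 in KO1, a peak of 30 bp in KO2 within the gene, and a peak on the start in the control at the 1.89 percentile.

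FARS2, the mitochondrial phenylalanyl-tRNA synthetase gene, spans 521650 bp and held the most peaks. Outside IgG sites it had 0 BRG1 peaks in KO1, 0 in KO2 and 10 in the control. One of the 10 lay on a start (54.0 percentile) and the others were spread through the gene at percentiles of at most 38.9. EARS2 (glutamyl), IARS2 (isoleucyl), LARS2 (leucyl) and YARS2 (tyrosyl) each had 0 in KO1, 0 in KO2 and 1 in the control, at percentiles between 13.7 and 35.4, the EARS2 peak lying on the neighbouring gene GGA2. RARS2 (arginyl) had 0 in KO1, 1 in KO2 and 0 in the control, and its KO2 peak lay on the start (35.3 percentile). AARS2, MARS2 and VARS2, together with the cytosolic enzyme genes CARS1, RARS1 and VARS1, had no peak in any of the 8 lists. The same 6 were the members with no peak in any BRG1 list, IgG sites included (32.7% of all genes). The share of all genes with no peak in any of the 8 lists is not given here.

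Among cytosolic enzymes, AARS1, for alanyl-tRNA synthetase on chromosome 16, held 0 BRG1 peaks in KO1, 0 in KO2 and 1 in the control. The peak spanned 70289591 to 70289740, its centre at position −159.5 from the start, at the 68.3 percentile. The 250 bases before the start, chr16:70289507-70289756 on the minus strand (GRCh38.p14), hold a match to the ATF4 composite element TGATGNAA on the opposite strand, in capitals, and the BRG1 control peak covered it.
AARS1: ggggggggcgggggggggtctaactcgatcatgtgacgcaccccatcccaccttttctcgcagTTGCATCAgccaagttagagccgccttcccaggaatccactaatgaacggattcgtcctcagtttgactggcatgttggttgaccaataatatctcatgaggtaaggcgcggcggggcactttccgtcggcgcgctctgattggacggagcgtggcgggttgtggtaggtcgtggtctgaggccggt
TARS1, the threonyl-tRNA synthetase gene, was the cytosolic enzyme gene whose BRG1 peak at the start was also listed in a knockout library. Outside IgG sites it held 0 peaks in KO1, 1 in KO2 and 1 in the control. The KO2 peak, at 33440781 to 33441040 on chromosome 5, overlapped the control peak at 33440711 to 33441030. They ranked at the 60.4 percentile in KO2 and the 65.9 percentile in the control.

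FARSB, for the beta subunit of cytosolic phenylalanyl-tRNA synthetase, held 0 in KO1, 0 in KO2 and 2 in the control outside IgG sites, 1 of them on the start (54.4 percentile). FARSA, for the alpha subunit, held 1 in KO1, 0 in KO2 and 0 in the control, within the gene at the 19.9 percentile. QARS1 (glutaminyl) held 0 in KO1, 1 in KO2 and 2 in the control. The KO2 peak lay on the QARS1 start at the 10.5 percentile, while the control peaks lay beyond the other end of the gene, near or on QRICH1. MARS1 (methionyl) held 1 in KO1, 0 in KO2 and 0 in the control, and YARS1 (tyrosyl) held 0, 1 and 1 in the same order at different places.

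A further 7 cytosolic genes, namely EPRS1, GARS1, KARS1, LARS1, NARS1, SARS1 and WARS1, had 0 BRG1 peaks outside IgG sites in KO1 and KO2 and 1 in the control. Their control peaks ranked between the 1.89 percentile (EPRS1 and NARS1) and the 45.7 percentile (KARS1). In GARS1, mutated in a hereditary neuropathy, the peak lay 172.5 bases after the start, and in WARS1, induced by interferon, 13126.5 bases after it.

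The scaffold proteins hold the multisynthetase complex together. AIMP2 held 0 BRG1 peaks in KO1, 1 in KO2 and 1 in the control. Both lay across the AIMP2 start and also overlapped PMS2, the neighbouring mismatch repair gene. These peaks overlapped each other, at the 55.0 percentile in KO2 and the 62.1 percentile in the control. EEF1E1 held 0, 0 and 3, and AIMP1 held 0, 0 and 1 outside IgG sites in the same order, the AIMP1 peak also lying on TBCK.

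**Figure D2:**
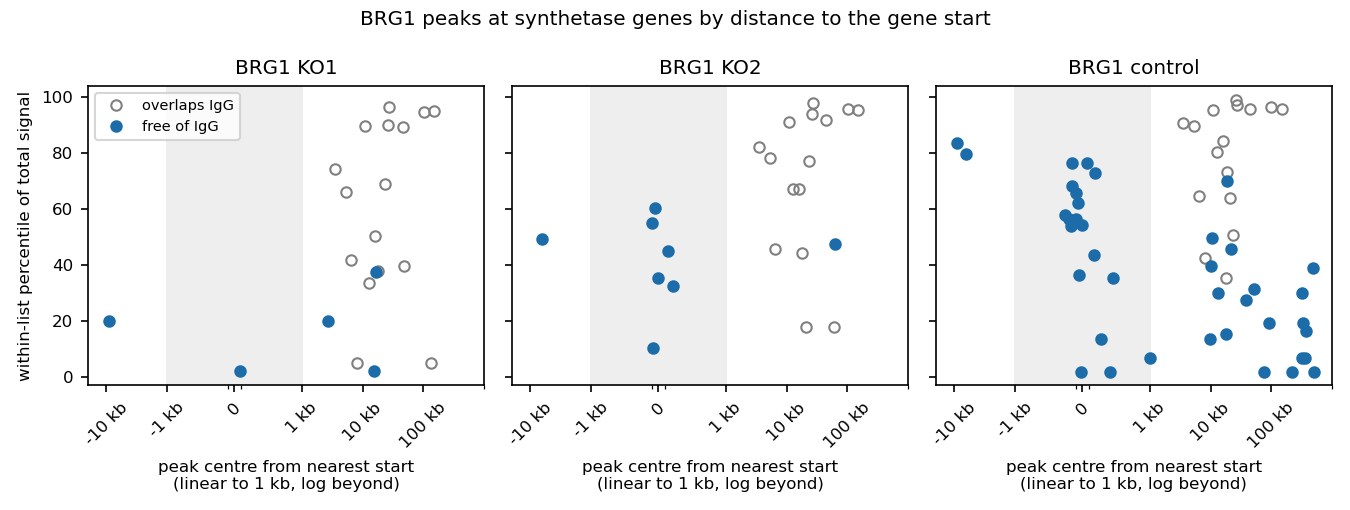
Within-list percentile of total signal of each BRG1 peak (vertical axis) by the distance of its centre from the nearest annotated start (horizontal axis, linear to 1 kb and logarithmic beyond, negative before the start), in KO1, KO2 and control cells, for the 33 members with an entry in the promoter table. Filled points are free of IgG sites and open points overlap one. The control peak shared by HARS2 and HARS1 is drawn for each of them and counted once here. Filled points within 1 kb of a start number 1 of 5 in KO1, 6 of 8 in KO2 and 16 of 38 in the control, and open points all lie more than 1 kb after a start.

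Counted once each, the BRG1 control peaks outside IgG sites at the 38 genes numbered 40, with widths of 100 to 650 bp and a median percentile of 33.5. Of the 38 whose gene has an entry in the promoter table, 16 were centred within 1 kb of a start. KO1 held 5 peaks outside IgG sites and KO2 held 9. Peak by peak, 1 of the 40 control peaks was overlapped in KO1, 4 in KO2, and 35 (87.5%) in neither. Over the 22486 such control peaks at all protein-coding genes the share in neither was 82.3%. The 5 retained peaks were 3 in the CARS2 window and 1 each at TARS1 and AIMP2, and all 5 were among the 8 with the highest total signal.

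The lists differ in the lowest signal they hold. The lowest total signal was 6228 in KO1, 5182 in KO2 and 4164 in the control, in the authors' units, and how libraries were scaled to each other is unknown. For Flag-actin it was 4650 in KO1, 5879 in KO2 and 25771 in the control. If the lists share a scale, which was not tested, all 12 Flag-actin control peaks outside IgG sites lay above both knockout values. The BRG1 comparisons that follow rest on the same assumption. Below the BRG1 KO1 value lay 27 of the 40 peaks, and below the BRG1 KO2 value 20. None of those was overlapped in the list concerned. Of the 22486 BRG1 control peaks outside IgG sites at all genes, 14567 lay below the KO1 value, with 345 of them overlapped in KO1, and 10140 below the KO2 value, with 484 overlapped in KO2. Of the 13 peaks at or above the KO1 value 1 was overlapped in KO1 (7.69%, against 15.8% over all genes), and of the 20 at or above the KO2 value 4 were overlapped in KO2, against 22.3% over all genes. Whether weaker signal persisted below those values in the knockout was not tested.

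**Figure D3:**
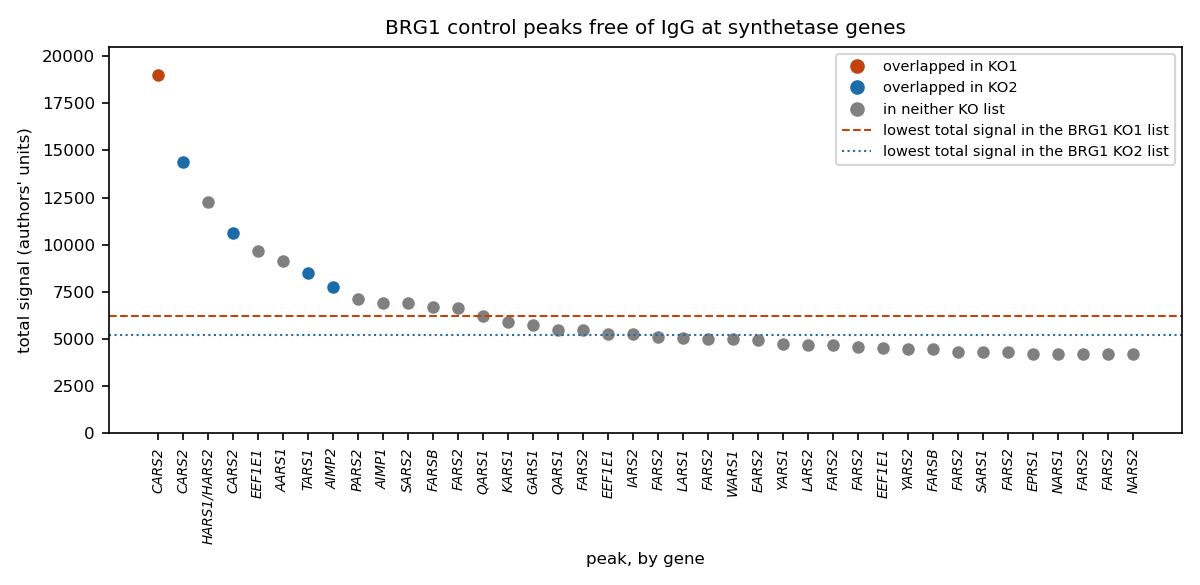
Total signal, in the authors' units, of the 40 BRG1 control peaks free of IgG sites at the 38 genes, ordered from high to low and named by gene. Colours mark the peaks overlapped by a KO1 or KO2 peak, and the lines give the lowest total signal in each knockout list, 6228 in KO1 and 5182 in KO2. Coloured points stand only among the 8 highest.

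At gene level, 18 members had a BRG1 peak outside IgG sites in the control and in neither knockout list, against 25.1% of all genes, and 0 members had one in both knockout lists and not in the control (0.744% of all genes). With IgG sites included these were 12 members (18.5% of all genes) and 0 members (0.858%). In exactly 1 knockout list and not the control, 3 members held one outside IgG sites (6.08% of all genes), namely FARSA, MARS1 and RARS2, and 4 with IgG sites included (4.50%). With IgG sites included, 10 members had a BRG1 peak in all 3 lists (29.9% of all genes). Outside them, 9 members had none in any BRG1 list (40.8%). With all BRG1 lists cut to the length of KO1, 6 members held a peak in the control and in neither knockout list (7.71% of all genes). Leaving out KO1 or KO2 gave 14 and 16 members in place of 12, and the shares of all genes for these counts are not given here.

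IgG sites were narrow and mostly present in all lists. In the BRG1 control 16 lay at the 38 genes, and 14 of them (87.5%) were overlapped in KO1 and 14 in KO2. Over all genes 76.8% of such sites were overlapped in KO1 and 84.4% in KO2. They were 30 to 90 bp wide, and 0 of them were centred within 1 kb of a start. Of the 16, 10, at EPRS1, IARS1, TARS1, FARS2, IARS2, NARS2, TARS2 and YARS2, were overlapped in all 7 other lists. The highest lay inside EPRS1, which encodes the enzyme for both glutamate and proline, at 220020571 to 220020620 on chromosome 1. It ranked at the 90.0 percentile in BRG1 KO1, the 94.1 percentile in BRG1 KO2, the 99.2 percentile in the BRG1 control and the 96.9 percentile in the BRG1 arm IgG.

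The BRG1 counts of mitochondrial and cytosolic enzymes differed by few genes, and no test of the difference was made. Outside IgG sites, a peak lay at 3 of 16 mitochondrial and 2 of 19 cytosolic genes in KO1, at 3 and 3 in KO2, and at 10 and 13 in the control. The control shares were 62.5% of mitochondrial and 68.4% of cytosolic genes. With IgG sites included the control counts were 11 of 16 and 14 of 19, a difference of −4.93 percentage points, mitochondrial minus cytosolic. This difference had the opposite sign, at 24.7 points, with lists of equal length, at 19.4 points among peaks above the median total signal of their list, and at 1.64 points within 1 kb of gene ends. These alternatives count IgG sites, which in the BRG1 control had a median percentile of 87.2 at the members, against 33.5 for the other peaks. The BRG1 arm IgG list itself had a peak at 7 of 16 mitochondrial and 5 of 19 cytosolic genes. Values of these alternatives without IgG sites are not given here. Of the control peaks outside IgG sites, 18 of 21 at mitochondrial genes and 14 of 15 at cytosolic genes were in neither knockout list, with the peak of HARS2 and HARS1 counted in both classes.

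Flag-actin peaks outside IgG sites lay at a smaller share of these genes than of all genes in each list. They lay at 5 of 38 members in KO1 (23.8% of all genes), 9 in KO2 (33.4%) and 5 in the control (38.9%). The share was 18.4% ± 7.44 in the knockout (SD, n = 2) against 13.2% in the control. At the rate of genes of similar span length the counts would be 9.95 in KO1, 13.9 in KO2 and 15.7 in the control. With IgG sites included the counts were 13 (39.0% of all genes), 17 (47.4%) and 13 (50.3%). The 12 Flag-actin control peaks outside IgG sites lay at SARS1, CARS2, EARS2, FARS2 and LARS2, and 1 lay on a promoter window, that of CARS2 (18.2 percentile; 3.38% of all genes had one). In KO1 and KO2 the count on promoter windows was 0 (0.966% and 2.03% of all genes).

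By class, the Flag-actin peaks outside IgG sites lay at 4 of 16 mitochondrial and 1 of 19 cytosolic genes in KO1, at 4 and 4 in KO2, and at 4 and 1 in the control. The control difference with IgG sites included was 23.7 points (8 of 16 mitochondrial against 5 of 19 cytosolic genes), and −5.26 points within 1 kb of gene ends. The Flag arm IgG list itself had a peak at the same numbers of genes, 8 of 16 mitochondrial and 5 of 19 cytosolic. SARS1, for cytosolic seryl-tRNA synthetase, held 1 Flag-actin peak in KO1, 1 in KO2 and 3 in the control. A peak of 40 bp at 109235361 to 109235400 on chromosome 1 in the control was overlapped in both knockout lists, at the 43.1 percentile in KO1, 30.7 in KO2 and 39.7 in the control. FARS2 held 4 in KO1, 0 in KO2 and 3 in the control. CARS2 held 0, 2 and 4, and SARS2 held 1, 2 and 0 in the same order. EARS2 was the 1 member with a Flag-actin peak outside IgG sites in the control and in neither knockout list (13.8% of all genes; 10.7% with IgG sites included, again EARS2 alone). SARS2 was the 1 member with one in both knockout lists and not in the control (3.51% of all genes, and 3.54% with IgG sites included). The SARS2 peak in KO1, at the 6.54 percentile, overlapped neither SARS2 peak in KO2. SARS1 was the 1 member with a Flag-actin peak outside IgG sites in all 3 lists (10.1%). A further 25 had none in any Flag-actin list (42.5%). With IgG sites included and lists of equal length, 1 member had a Flag-actin peak in the control and in neither knockout list (8.65% of all genes). Of the 12 control peaks, 11 were in neither knockout list, against 94.3% of such peaks over all genes.

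**Figure D4:**
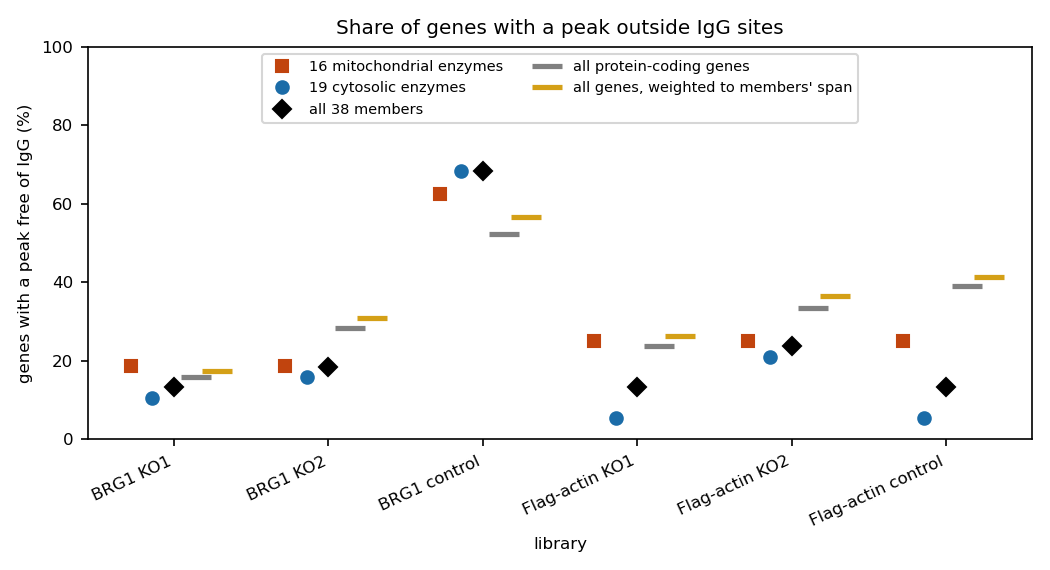
Share of genes with a peak free of IgG sites (vertical axis, percent) in each antibody library, for the 16 mitochondrial enzymes, the 19 cytosolic enzymes, all 38 members, all protein-coding genes, and all genes weighted to the span lengths of the members. In the BRG1 control the members stand at 68.4% against 52.4% of all genes, and in the Flag-actin control at 13.2% against 38.9%.

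The ATF4 composite element TGATGNAA, searched on both strands, was in the promoter windows of 1 of 14 mitochondrial enzyme genes, 7 of 16 cytosolic enzyme genes and 0 of 3 scaffold genes, against 3.60% of all genes with an entry. The 28 bases around each match (GRCh38.p14) are shown on the strand in which the element reads forward, with the element in capitals, because BRG1 peaks lie on some of them and not on others.
YARS2, chr12:32756077-32756104, minus strand: tccacactgcTGATGGAAaaattaagtt
AARS1, chr16:70289676-70289703, plus strand: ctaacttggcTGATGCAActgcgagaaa
CARS1, chr11:3057408-3057435, plus strand: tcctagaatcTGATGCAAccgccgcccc
GARS1, chr7:30594835-30594862, minus strand: gctcggagcaTGATGAAAtcgccgcgta
IARS1, chr9:92293693-92293720, plus strand: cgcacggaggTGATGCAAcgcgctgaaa
MARS1, chr12:57488054-57488081, minus strand: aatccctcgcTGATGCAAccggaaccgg
NARS1, chr18:57621805-57621832, minus strand: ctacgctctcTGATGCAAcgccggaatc
TARS1, chr5:33440957-33440984, minus strand: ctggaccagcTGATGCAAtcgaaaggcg
Of these 8 elements, those of AARS1 and TARS1 lay under a BRG1 control peak outside IgG sites. Of all genes with an entry, 25.1% had such a peak on the promoter window. The share among all genes with the element is not given here, and a link between BRG1 peaks and the element was not tested. The nearest BRG1 control peak outside IgG sites was 129 bp away at GARS1, 265 bp at NARS1 and 277 bp at YARS2. CARS1, IARS1 and MARS1 had none in their windows. The elements of CARS1 and MARS1 span the start itself.

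The ETS core CCGGAAG was in the windows of 7 of 14 mitochondrial, 9 of 16 cytosolic and 1 of 3 scaffold genes (16.5% of all genes). The E-box CACGTG, bound by MYC, was in 3, 1 and 1 in the same order (10.9%), and the AP-1 motif TGANTCA in 0, 0 and 0 (8.04%). Matches of different motifs were allowed to overlap.

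Genes that work with the synthetases were counted in the same way. Of 30 genes of the amino acid response, which restrains translation when uncharged tRNA accumulates, 9 held a BRG1 peak outside IgG sites in KO1, 6 in KO2 and 22 in the control (15.7%, 28.3% and 52.4% of all genes). By the same count, 25 other factors that make, edit or deliver aminoacyl-tRNA gave 2, 7 and 16, and 31 genes for RNA polymerase III and its factors, which transcribe tRNA genes, gave 5, 13 and 22. A peak in the control and in neither knockout list was found for 11 of the 30, 10 of the 25 and 11 of the 31, against 25.1% of all genes. Within the amino acid response list, the highest percentiles in the control were at DDIT4, a restrainer of mTORC1 (87.4), the transcription factor gene ATF3 (82.3), the serine synthesis gene PSPH (78.3) and the amino acid transporter gene SLC38A2 (77.3).

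Peaks outside IgG sites were 0 in KO1, 2 in KO2 and 3 in the control at DDIT4, and 1, 3 and 6 at ATF3. TSEN54, for a subunit of the tRNA splicing endonuclease, had 0 in KO1, 0 in KO2 and 4 in the control. ELAC2, which trims tRNA 3′ ends, had 0, 1 and 1, and SNAPC2, for a subunit of the factor that directs snRNA transcription, had 1, 0 and 2. For Flag-actin the lists gave 8, 10 and 12 of the 30 genes, 6, 8 and 9 of the 25, and 5, 9 and 14 of the 31, in KO1, KO2 and the control, against 23.8%, 33.4% and 38.9% of all genes.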

How the data were processed

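The files are 8 peak lists, 1 per library, laid out as SEACR writes its calls. The authors' names for the lists carry the word stringent and a threshold of 0.01 for antibody and 0.005 for IgG libraries. Per the submitters' processing notes the build was hg38 and the authors used tools that include bedtools 2.30.0, FastQC 0.12.0, Trim Galore 0.4.5, SEACR, BWA and MACS2, listed without role or order. The deposited values are the total and the maximum signal of each peak, with scaling not given in the sources used here, so total signal was used to rank peaks within a list. In comparing it with the lowest value of a knockout list, the same scale was assumed. Overlaps, found with pandas 2.3.3 and numpy 2.4.6 (Python 3.11.15), were checked on 7000 simulated intervals, where bedtools 2.31.1 differed in 0 cases. Peaks off chromosomes 1 to 22, X and Y, between 2.11% and 4.04% of a list, were left out. Gene spans and promoters came from RefSeq, GRCh38.p14. All 38 members, and all genes of the context lists of 30, 25 and 31, matched a symbol.

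No test over samples was made: each antibody had 2 knockout libraries and 1 control library, and genes are not replicates. Counts at the members stand beside the same counts over all protein-coding genes where these were made. All 38 members could be named. Promoter sequence was shown for the 4 members with the highest BRG1 control peak on it, and for context lists the 4 genes with the highest such peak could be named. The 28-base stretches and the motifs were chosen after the values were seen. The members and the lists were chosen with earlier results of these data known.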

Additional observations from a re-analysis of the deposited data

How the results depend on the processing

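All values here count IgG sites unless said otherwise. For BRG1, the members with a peak in the control and in neither knockout list numbered 12 (18.5% of all genes). They numbered between 14 and 16 with 1 knockout library left out, and 6 with lists of equal length (7.71% of all genes). With only peaks wider than 100 bp, an alternative chosen after seeing the data, they numbered 19. The median BRG1 peak was 40 bp wide in KO1 and KO2 and 140 bp in the control, so this filter removes more of the knockout lists. Shares of all genes with a library left out or with wide peaks are not given here. The BRG1 share of members with a peak, knockout mean minus control, was −34.2 percentage points, between −36.8 and −31.6 with one knockout library left out, −23.7 without the flanks, −52.6 without IgG sites, −13.2 with lists of equal length, −26.3 among peaks above the median total signal of their list and −53.9 with peaks wider than 100 bp. It was negative under every alternative run. Over all genes this difference was −22.2 points, and −30.4 points without IgG sites. Its values over all genes under the other alternatives are not given here. Whether those changes are particular to the members was not tested. The BRG1 control difference, mitochondrial minus cytosolic, was −4.93 points and had the opposite sign within 1 kb of gene ends (1.64), with lists of equal length (24.7) and above the median signal (19.4). Without IgG sites it was −5.92 points. The alternatives of opposite sign count IgG sites, which rank high in the list, and their values without IgG sites are not given here.

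For Flag-actin, the member with a peak in the control and in neither knockout list was EARS2 alone (10.7% of all genes). There were between 1 and 2 such members with 1 knockout library left out, and 4 with peaks wider than 100 bp. Shares of all genes for these alternatives are not given here. The Flag-actin knockout minus control share was 5.26 points for the members, against −7.14 points over all genes. For the members it was between 0 and 10.5 with 1 knockout library left out. It had the opposite sign above the median signal (−2.63) and with peaks wider than 100 bp (−5.26). The Flag-actin control difference, mitochondrial minus cytosolic, was 23.7 points and −5.26 within 1 kb of gene ends. In the Flag arm IgG list the counts by class were the same as in the Flag-actin control, 8 of 16 mitochondrial and 5 of 19 cytosolic genes. The causes of these changes were not tested. No paired analysis was possible because each antibody had 1 control library and no test was made.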
